A study of Oncorhynchus mykiss with 24 samples.

Results

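The set described here holds 53 oligos, of 43689 on the array, whose mRNAs serve lipid, carbohydrate, nucleotide and energy metabolism in the liver of rainbow trout (Oncorhynchus mykiss). They were taken from the study's 6 lists of mRNAs that differed between pairs of groups, which name 486 oligos in all. A listed oligo was kept when its functional category was lipid metabolism (17 oligos), carbohydrate metabolism (9), nucleotide metabolism (11) or generation of precursor metabolites and energy (16), leaving out apolipoproteins, lipocalins, epoxide hydrolase and 6 further spots. The 53 oligos carry 45 descriptions, since 5 descriptions were measured by 2 or 3 spots each. Because differences between these same fish put each oligo on its list, the differences between groups given for them are descriptions and not tests.

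The study compared 4 groups of 6 fish. W/D fish were first-generation hybrids of a domesticated mother and a wild father. D fish were domesticated trout of a farmed strain selected for fast growth, Wa fish were wild trout of the Pennask Lake strain matched to D in age, and Ws fish were wild trout of that strain, a year older and matched to D in size. By the study's methods, W/D, D and Wa each came from a single cross made in the same season, in which W/D shared its mother with D and its father with Wa, whereas Ws came from randomly mated crosses. The spread between fish in W/D, D and Wa is therefore a spread within 1 family, and strain and family cannot be told apart. The study also reports that the groups varied in length and weight, D and Ws being the heaviest. Strain and body size thus cannot be told apart between D, W/D and Wa. D and W/D differ from Ws in age and year as well as in strain and family, and W/D differs from Ws in body size too. Between Wa and Ws, age, body size, family and year cannot be told apart. All families were kept under the same culture conditions and fed to satiation, and no food was given in the day before sampling. The study reports that the families were reared individually, so that group and rearing unit cannot be told apart.

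The liver stores and releases fuel for the whole animal. It makes fatty acids and cholesterol under the control of sterol regulatory element-binding proteins, burns fatty acids in mitochondria, turns sugars into glycogen and into the activated sugars used on glycoproteins, and feeds electrons from these fuels into the respiratory chain, where ATP is made. It also builds, salvages and degrades the nucleotides used for RNA and DNA, and in fish, as in mammals, these routes respond to feeding and growth.

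Each array compared 1 fish (Cy5) with a pool of 6 Ws fish (Cy3), and every value below is the log2 ratio of the fish to that pool, so that 1 unit is a 2-fold difference. The median Cy5 signal of an array ran between 197 and 246, and between 33.6% and 46.2% of oligos exceeded the mean local background by 2 of its standard deviations. Of the 53 oligos, between 47 and 53 did so on an array, with the lowest number in D replicate 1. After a filter on low signal and quality flags, 8679 oligos were tested, and 50 of the 53 were among them. Of these 50, 31 passed the filter in all 4 groups and 3 in a single group. The oligos for cytochrome c oxidase polypeptide VIc-1, for NADH-ubiquinone oxidoreductase chain 3 (MT-ND3) and 1 of 3 for cytochrome c oxidase subunit VIb isoform 1 (COX6B1) did not pass, each having a value set missing by a quality flag in every group. Such flags touched 18 of the 53. Over all oligos they were more frequent on the Ws arrays (between 2.32% and 2.75%) than on the arrays of the other groups (between 0.61% and 1.66%). Serum albumin and fibrinogen spots, which mark hepatocytes, were above background on every array, but the 2 spots differed by -1.60 and 1.05 in D compared with Wa and by -1.94 and 1.87 in D compared with Ws, 1 called lower and 1 higher in each. Of 4 immunoglobulin spots, 1 was called higher and 2 lower in D compared with Wa, and 2 higher and 1 lower in D compared with Ws, where the trypsinogen-like spot was called higher (1.03). Among spots of other cell types on the lists, the mean log2 ratio of 34 hemoglobin spots ran between -0.30 and 0.56 in W/D, between 0.062 and 2.14 in D, between -0.62 and -0.019 in Wa and between -1.07 and -0.20 in Ws. That of 6 sarcomeric actin spots ran between -2.75 and -0.77 in W/D, between -0.91 and -0.019 in D, between -1.65 and -1.05 in Wa and between -0.35 and 0.83 in Ws. In bulk liver, fewer cells of a type and less RNA per cell cannot be told apart. The groups held fixed positions on the 6 slides, so that position and group cannot be told apart either. The titles of D replicates 4 and 6 carry the same fish code, but their log2 ratios correlated no more closely (r = 0.617 over the filtered oligos) than those of other D fish (up to 0.643), and both were used.

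**Figure D1:**
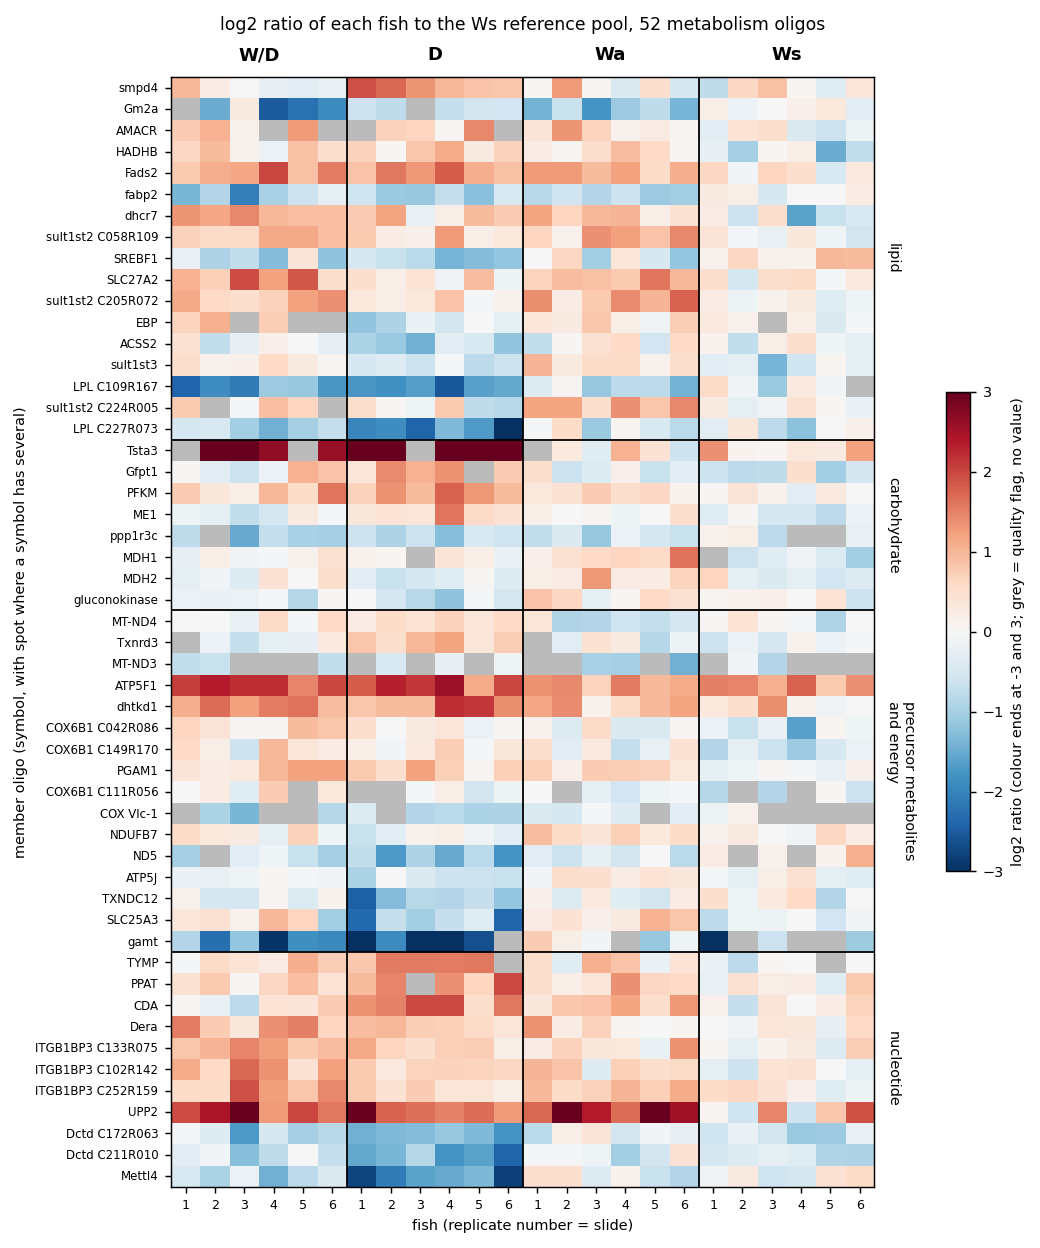
Log2 ratio of each fish to the Ws pool for 52 of the 53 oligos (rows, grouped by functional category and ordered by the difference between D and Wa) in the 24 fish (columns, by group and replicate number). Red is above the pool, blue is below it, colours end at -3 and 3, and grey marks a value set missing by a quality flag. Tsta3 is dark red in W/D and D and pale in Wa and Ws, and gamt is dark blue in most D fish.

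An oligo was called different in a comparison when limma's adjusted p over all 8679 oligos was at most 0.05 and the fold at least 2. The most members were called in D compared with the 2 wild groups. In D compared with Ws, 21 of the 50 tested members were called (14 higher and 7 lower), against 3.45% of all oligos (2.43% higher and 1.01% lower). In D compared with Wa, 15 were called (5 higher and 10 lower), against 3.58% of all oligos (1.58% lower). W/D differed from Ws in 10 members (5 higher and 5 lower, against 2.06% of all oligos, 1.39% higher), from D in 8 (5 higher and 3 lower, against 0.749%, 0.392% higher and 0.357% lower) and from Wa in 1 (higher, 0.933%). Between Wa and Ws, 6 members were called (5 higher and 1 lower, 0.887%). Since the same comparisons chose the members, these counts describe the set and carry no evidence of their own. Of the 34 hemoglobin spots, 14 were called higher and 0 lower in D compared with Ws, and 9 higher and 1 lower compared with Wa. These spots were taken from the same lists, so that their counts are descriptions too. Their part in the members' differences was not tested. Another scaling moved the balance of directions. With median centring in place of loess, the higher and lower members numbered 6 and 1 in W/D compared with D, 15 and 2 in W/D compared with Ws, 1 and 15 in D compared with Wa and 8 and 0 in Wa compared with Ws, and the median of all tested oligos moved by 0.14, 0.13, -0.16 and 0.15 in these comparisons. With the Cy5 signal alone they numbered 2 and 3 in W/D compared with D, 7 and 2 in W/D compared with Ws, 6 and 6 in D compared with Ws and 6 and 0 in Wa compared with Ws, and with the deposited ratios 5 and 5, 15 and 5, 18 and 8 and 9 and 0 in the same order. Without D replicate 1, the counts in D compared with Ws and Wa were 21 and 14, and that in W/D compared with D was 5. Without D replicate 4 they were 15, 13 and 5, and without D replicate 6 they were 20, 12 and 5.

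The median difference of D was positive compared with Ws and small and negative compared with Wa. In D compared with Ws, 29 members were higher and 21 lower. The split was nearly even in D compared with Wa, at 23 higher and 27 lower. The median log2 fold change of the 50 members was 0.54 in D compared with Ws and -0.14 in D compared with Wa, against -0.0090 and -0.023 over all oligos. It was 0.30 in W/D compared with D, -0.14 in W/D compared with Wa, 0.55 in W/D compared with Ws and 0.40 in Wa compared with Ws, against at most 0.024 over all oligos. Where all 12 fish of a pair of groups had a value, no fish of one group lay within the range of the other for 3 of 36 members in W/D compared with D (1.28% over all oligos with such values), 0 of 40 in W/D compared with Wa (1.25%), 7 of 37 in W/D compared with Ws (2.02%), 9 of 40 in D compared with Wa (3.63%), 9 of 37 in D compared with Ws (3.43%) and 7 of 41 in Wa compared with Ws (1.61%). The 6 comparisons share fish, so that their values are not independent of each other. The study's lists required a P value of at most 0.05 and a fold of at least 2 by its own processing. Here the 93 listed differences of tested members ran between 0.62 and 4.01 in size on the log2 scale. Of the 93, 63 reached 2-fold and 60 were called, so that the rest did not meet the criterion of a call. Just past 2-fold were Txnrd3 in W/D compared with D (-1.001) and ME1 in D compared with Ws (1.01), and just short of it SLC27A2 in W/D compared with Ws (0.997) and Fads2 in D compared with Ws (0.998).

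**Figure D2:**
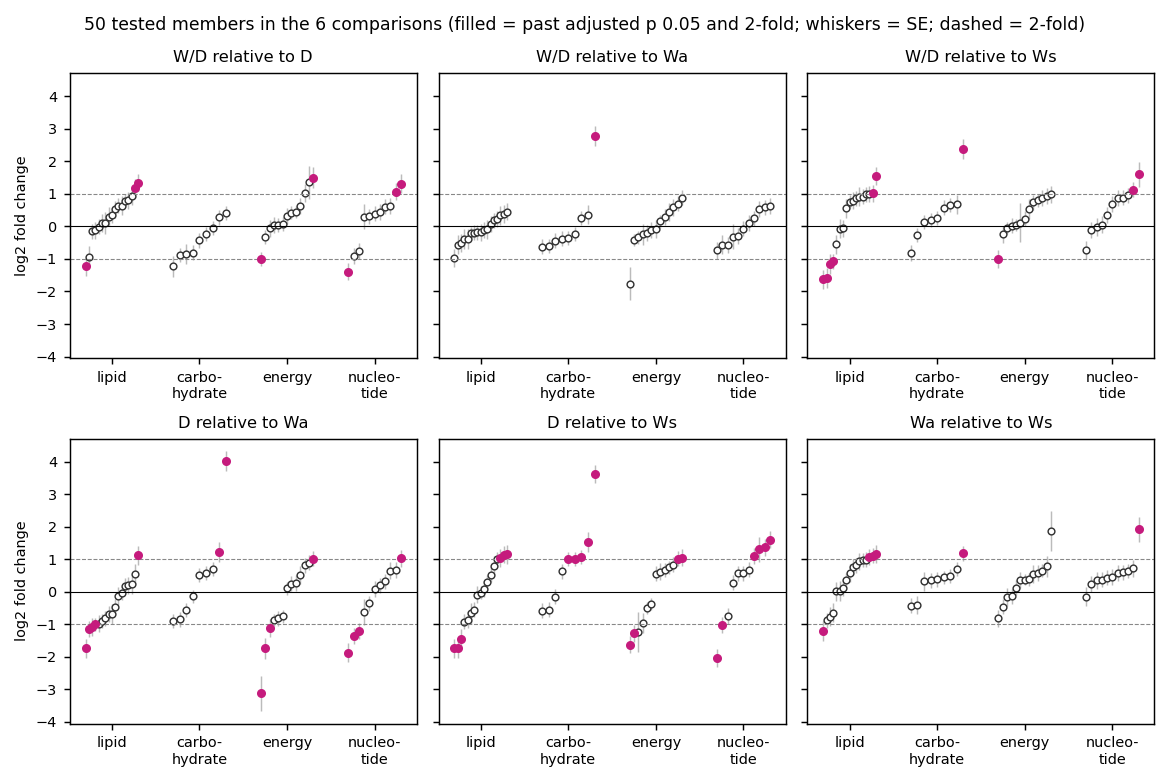
Log2 fold change (vertical axis) of the 50 tested members in the 6 comparisons, by functional category. Filled points passed both thresholds for a call, whiskers are standard errors and dashed lines mark 2-fold. D compared with Ws has 21 filled points, 14 of them above 0, and W/D compared with Wa has 1.

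Among the members of lipid metabolism, the regulator SREBF1 was low in D and W/D compared with Ws while the desaturase Fads2 was high in both. SREBF1, which codes for the transcription factor that drives fatty acid synthesis genes, had log2 ratios between -1.29 and 0.38 (median -0.83) in W/D fish, between -1.41 and -0.48 (median -0.99) in D fish, between -1.16 and 0.63 (median -0.25) in Wa fish and between 0.11 and 0.97 (median 0.37) in Ws fish. Every D fish was below every Ws fish, and the W/D and Wa fish overlapped both. The log2 fold change was -1.45 ± 0.30 in D compared with Ws (SE of the limma fit here and below) and -1.15 ± 0.30 in W/D compared with Ws.

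Fatty acid desaturase 2 (Fads2), which makes long-chain polyunsaturated fatty acids and whose gene SREBP-1 activates in mammals, stood the other way. Its log2 ratios lay between 0.78 and 2.00 (median 1.13) in W/D fish, between 0.85 and 1.83 (median 1.19) in D fish, between 0.55 and 1.29 (median 1.15) in Wa fish and between -0.47 and 0.65 (median 0.39) in Ws fish. All fish of W/D and of D lay above all Ws fish, and those of Wa overlapped Ws only at the edge. The log2 fold change compared with Ws was 0.99 ± 0.23 in W/D, 0.998 ± 0.23 in D and 0.81 ± 0.23 in Wa.

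NADP-dependent malic enzyme (ME1) supplies the NADPH that fatty acid synthesis consumes, and the lists place it in carbohydrate metabolism. Its log2 ratios were between -0.74 and 0.26 (median -0.21) in W/D fish, between 0.35 and 1.60 (median 0.43) in D fish, between -0.15 and 0.51 (median 0.036) in Wa fish and between -0.78 and 0.034 (median -0.43) in Ws fish. The D fish did not overlap the W/D or the Ws fish, with a log2 fold change of 1.01 ± 0.21 in D compared with Ws and -0.87 ± 0.21 in W/D compared with D, although D replicate 4 at 1.60 stood above the other D fish. Cytoplasmic acetyl-CoA synthetase (ACSS2), which activates acetate for lipid synthesis, was listed for D compared with Wa, where its log2 fold change was -0.98 ± 0.26, short of 2-fold. Its mean log2 ratio was -0.11 in W/D, -0.91 in D, 0.065 in Wa and -0.056 in Ws. D was thus below Ws too, as for SREBF1, but this difference was not called.

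Both enzymes of the late cholesterol pathway had their highest mean in W/D. 7-dehydrocholesterol reductase (dhcr7), which carries out the final reduction to cholesterol, had log2 ratios between 0.90 and 1.44 (median 1.08) in W/D fish, between -0.23 and 1.19 (median 0.76) in D fish, between 0.17 and 1.17 (median 0.81) in Wa fish and between -1.61 and 0.53 (median -0.54) in Ws fish. The W/D fish kept within a narrow band above all Ws fish, while the D and Wa fish overlapped both. The log2 fold change compared with Ws was 1.55 ± 0.28 in W/D, 1.03 ± 0.28 in D and 1.17 ± 0.28 in Wa. Each was higher than Ws in 6 of 6 slides, 5 of 6 slides and 6 of 6 slides. By the study's methods a slide held 1 fish of every group. The sample labels name no slide, so here and below samples of the same replicate number were taken to share 1. The sterol isomerase EBP, which acts earlier in that pathway, had a value in only 3 W/D fish, between 0.66 and 1.06, against -0.53 ± 0.46 in 6 D fish (mean ± SD), with a log2 fold change of 1.35 ± 0.27.

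Uptake of circulating fat was represented by lipoprotein lipase (LPL), which releases fatty acids from the triglycerides of lipoproteins, on 2 spots. At spot C109R167 the log2 ratios were between -2.38 and -1.09 (median -1.80) in W/D fish, between -2.55 and -1.54 (median -1.70) in D fish, between -1.43 and 0.082 (median -0.79) in Wa fish and between -1.12 and 0.57 (median -0.080, 5 fish) in Ws fish. W/D and D were both low there, with log2 fold changes of -1.63 ± 0.29 and -1.73 ± 0.29 compared with Ws and 0.11 ± 0.28 between them. At spot C227R073 the log2 ratios were between -1.44 and -0.46 (median -0.86) in W/D fish, between -2.98 and -1.32 (median -1.92) in D fish, between -1.12 and 0.56 (median -0.26) in Wa fish and between -1.23 and 0.34 (median -0.16) in Ws fish. Here D was the lowest group, below every Wa and Ws fish, with log2 fold changes of -1.74 ± 0.29 and -1.73 ± 0.29, and W/D stood 1.18 ± 0.29 above D. The W/D mean (-0.86) lay between that of D (-2.04) and those of Wa (-0.30) and Ws (-0.31), and W/D was not called different from either wild group. This spot was above background in only 3 of the 6 D fish. The 2 spots thus shared the low level of D and differed in where W/D lay.

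Of the transport and oxidation members, the very long-chain acyl-CoA synthetase SLC27A2, which activates fatty acids, was 0.997 ± 0.25 in W/D compared with Ws and 0.76 ± 0.25 in Wa compared with Ws, higher in 6 of 6 slides in both comparisons. The difference of D was 0.073 ± 0.25 compared with Ws. The beta subunit of the mitochondrial trifunctional enzyme (HADHB), which performs the last steps of each round of fatty acid oxidation, had log2 ratios between -0.19 and 0.95 (median 0.55) in W/D fish, between 0.046 and 1.11 (median 0.69) in D fish, between 0.047 and 0.93 (median 0.39) in Wa fish and between -1.48 and 0.19 (median -0.48) in Ws fish. It was higher than in Ws by 1.01 ± 0.26 in W/D, 1.14 ± 0.26 in D and 0.94 ± 0.26 in Wa, and W/D, D and Wa overlapped throughout. Alpha-methylacyl-CoA racemase (AMACR), needed to oxidise branched fatty acids, was listed for W/D compared with Ws (0.91 ± 0.30). It had a value in 4 W/D fish and was above background on 4 arrays of W/D and 4 of Ws. The intestinal fatty acid-binding protein fabp2 was lower in W/D than in Ws (-1.07 ± 0.23) in 6 of 6 slides. D and Wa were low too, with mean log2 ratios of -1.03 in W/D, -0.88 in D, -0.84 in Wa and 0.040 in Ws.

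Sphingolipid breakdown gave a pair of contrasting patterns. Sphingomyelin phosphodiesterase 4 (smpd4), which cleaves sphingomyelin to ceramide, had log2 ratios between -0.33 and 0.99 (median -0.12) in W/D fish, between 0.84 and 1.93 (median 1.16) in D fish, between -0.48 and 1.28 (median 0.060) in Wa fish and between -0.76 and 0.89 (median 0.22) in Ws fish. D was the high group, by 1.12 ± 0.30 over Wa and 1.14 ± 0.30 over Ws, and W/D was -1.21 ± 0.30 compared with D, in 6 of 6 slides. The ganglioside GM2 activator (Gm2a), a lysosomal cofactor of ganglioside breakdown, had log2 ratios between -2.50 and 0.27 (median -1.90, 5 fish) in W/D fish, between -0.77 and -0.54 (median -0.62, 5 fish) in D fish, between -1.78 and -0.68 (median -1.24) in Wa fish and between -0.34 and 0.31 (median 0.084) in Ws fish. Every Wa fish was below every Ws fish (-1.21 ± 0.30), and W/D was lower than Ws (-1.59 ± 0.31) although 1 of its 5 fish lay among the Ws fish.

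Cytosolic sulfotransferases, which in zebrafish attach sulfate to steroids and phenols, were represented by 4 spots. Of these, 2 were called higher in Wa compared with Ws (0.507% of all oligos) and 2 lower in D compared with Wa (1.58%). In the comparisons of W/D, 0 were called (between 0.749% and 2.06% of all oligos). The 3 spots of cytosolic sulfotransferase 2 (sult1st2) each had their highest mean in Wa and the next in W/D. At C205R072 the log2 ratios were between 0.51 and 1.37 (median 0.91) in W/D fish, between -0.069 and 0.85 (median 0.26) in D fish, between 0.22 and 1.78 (median 1.21) in Wa fish and between -0.36 and 0.28 (median -0.0040) in Ws fish. At C058R109 they were between 0.57 and 1.14 (median 0.80) in W/D fish, between 0.16 and 1.27 (median 0.27) in D fish, between 0.12 and 1.44 (median 1.05) in Wa fish and between -0.55 and 0.40 (median -0.087) in Ws fish. At C224R005 they were between -0.028 and 0.90 (median 0.71, 4 fish) in W/D fish, between -0.84 and 0.78 (median -0.047) in D fish, between 0.50 and 1.43 (median 1.18) in Wa fish and between -0.30 and 0.46 (median -0.038) in Ws fish. The Wa fish lay above all Ws fish at C224R005 and overlapped them at C058R109 and C205R072. At C058R109 and C205R072 all W/D fish lay above all Ws fish, with a difference short of 2-fold. Both of these spots stood on the study's list of W/D compared with Ws. The fold over Ws in Wa was 0.98 ± 0.23, 1.10 ± 0.23 and 1.06 ± 0.25 on the log2 scale at C058R109, C205R072 and C224R005, in 6 of 6 slides at each. Cytosolic sulfotransferase 3 (sult1st3) had log2 ratios between 0.081 and 0.59 (median 0.21) in W/D fish, between -0.79 and -0.036 (median -0.56) in D fish, between 0.12 and 1.02 (median 0.54) in Wa fish and between -1.40 and 0.075 (median -0.32) in Ws fish. Neither the W/D nor the Wa fish overlapped the D or the Ws fish, and D compared with Wa was -1.01 ± 0.21.

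The largest difference between group means of any tested member was in carbohydrate metabolism. GDP-L-fucose synthetase (Tsta3), which makes the activated fucose used on glycoproteins, had log2 ratios between 2.61 and 3.33 (median 2.90, 4 fish) in W/D fish, between 3.90 and 4.57 (median 4.05, 5 fish) in D fish, between -0.63 and 1.04 (median 0.29, 5 fish) in Wa fish and between 0.053 and 1.36 (median 0.29) in Ws fish. The W/D and D fish with a value were all above the Wa and Ws fish, and the 4 W/D fish with a value were all below the D fish. The difference between W/D and D, which the study lists, was not called here. The W/D fish set missing by flags had the highest Cy5 signals of W/D (13605 and 11846), within the range of the D fish (9603.5 to 23260). The log2 fold change was 4.01 ± 0.30 in D compared with Wa, 3.61 ± 0.28 in D compared with Ws, 2.79 ± 0.31 in W/D compared with Wa and 2.38 ± 0.30 in W/D compared with Ws. The Cy5 signal had a median of 7610 in W/D and 16833 in D, against 845 in Wa and 701 in Ws. The oligo passed the filter through the Ws arrays alone, and quality flags removed between 0 and 2 values in a group.

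Another enzyme of activated sugars also had its highest mean in D. Glucosamine-fructose-6-phosphate aminotransferase 1 (Gfpt1), the entry enzyme of the hexosamine pathway, had log2 ratios between -0.64 and 1.05 (median -0.059) in W/D fish, between 0.37 and 1.41 (median 1.03, 5 fish) in D fish, between -0.67 and 0.53 (median -0.38) in Wa fish and between -1.04 and 0.51 (median -0.70) in Ws fish. D exceeded Wa by 1.22 ± 0.30 and Ws by 1.53 ± 0.30, with the other three groups overlapping. The oligo was above background on 5 arrays of W/D, 6 of D, 5 of Wa and 4 of Ws.

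Muscle-type phosphofructokinase (PFKM), whose reaction commits glucose to glycolysis, had log2 ratios between 0.20 and 1.59 (median 0.65) in W/D fish, between 0.70 and 1.76 (median 1.13) in D fish, between 0.096 and 0.76 (median 0.50) in Wa fish and between -0.31 and 0.40 (median 0.072) in Ws fish. All D fish lay above all Ws fish, and the log2 fold change was 1.08 ± 0.22. The median difference of the 6 sarcomeric actin spots was -0.78 in D compared with Ws (0 called) and 1.26 in D compared with Wa (4 called higher, 1 lower), where PFKM differed by 0.70 ± 0.22, and their part in the result was not tested. Phosphoglycerate mutase 1 (PGAM1), a later glycolytic enzyme, was higher compared with Ws by 0.80 ± 0.21 in W/D, 0.75 ± 0.21 in D and 0.65 ± 0.21 in Wa, in 6 of 6 slides each. The glycogen-targeting phosphatase subunit ppp1r3c was -0.81 ± 0.24 in W/D compared with Ws, with values in 5 and 4 fish.

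Both malate dehydrogenases, which help to pass electrons between cytosol and mitochondria, had their highest mean in Wa. The cytoplasmic enzyme (MDH1) was 1.18 ± 0.23 in Wa compared with Ws, and the mitochondrial enzyme (MDH2) was -0.85 ± 0.22 in D compared with Wa with no overlap of the fish. The probable gluconokinase, which phosphorylates gluconate, also had its highest mean in Wa and its lowest in D, at -0.90 ± 0.23 in D compared with Wa.

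**Figure D3:**
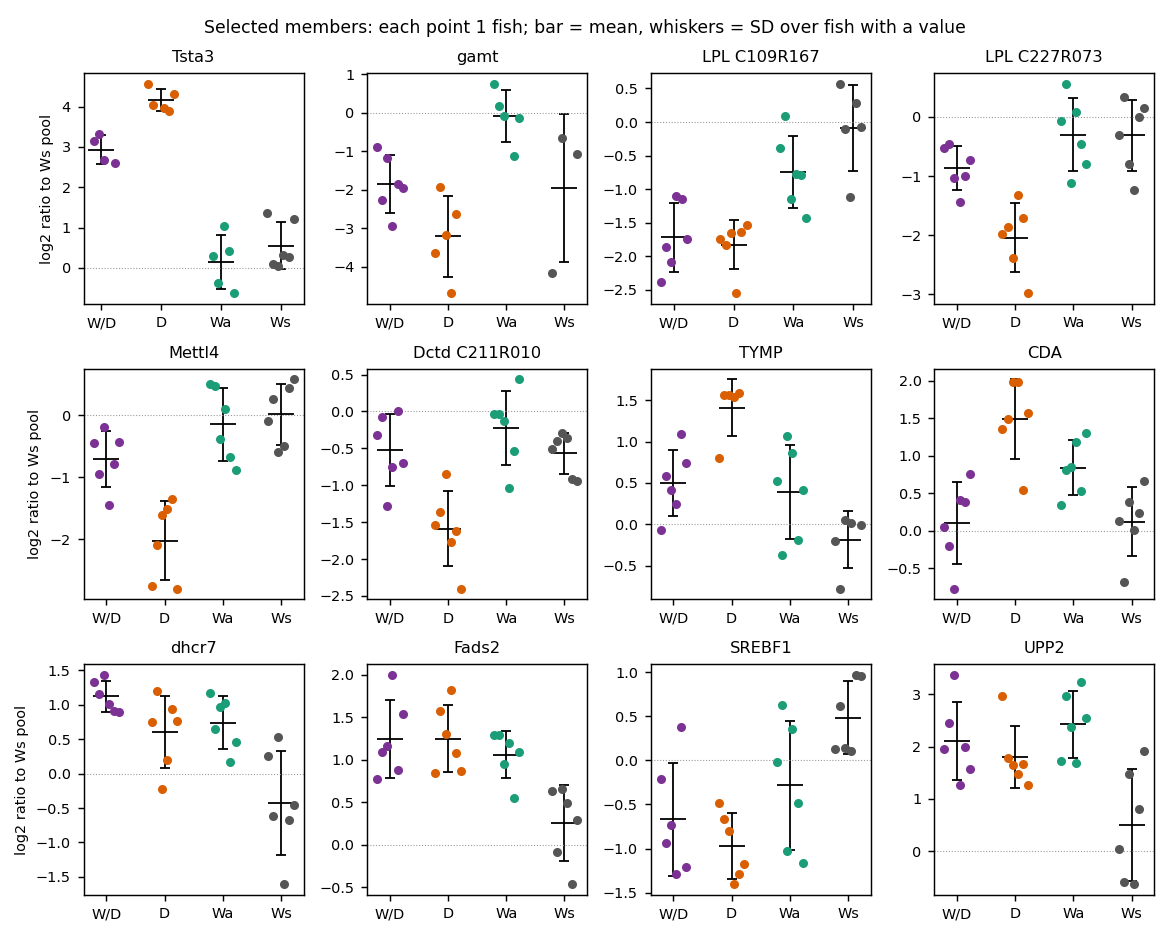
Log2 ratio to the Ws pool (vertical axis, scaled separately) of 12 oligos in each fish, by group. Each point is 1 fish, the bar is the mean and whiskers are the SD over fish with a value. Tsta3 is near 3 in W/D and 4 in D, the 2 LPL spots share a low D, with W/D as low as D at C109R167 alone, and Mettl4 and Dctd are lowest in D.

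Of the 13 tested members that generate energy, 4 were called in D compared with Wa (1 higher and 3 lower), against 3.58% of all oligos. In D compared with Ws, 4 were called (2 higher and 2 lower), against 3.45%. The list of each of these comparisons had itself chosen 7 of the 13, so that the counts are descriptions. In complex I, which takes electrons from NADH, the nuclear subunit NDUFB7 was lower in D than in Wa (-0.76 ± 0.20) with no overlap, whereas the mitochondrial subunit MT-ND4 was higher (1.02 ± 0.22), in 5 of 6 slides. The mitochondrial subunit ND5 was lower compared with Ws in W/D (-1.01 ± 0.27) and D (-1.63 ± 0.26), and MT-ND3, with 2 or 3 values in a group, was -0.65 ± 0.37 in Wa compared with Ws without the filter.

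In complex IV, which passes electrons to oxygen, COX6B1 was listed on 3 spots, all higher in W/D than in Ws. At C149R170 the log2 ratios were between -0.61 and 0.96 (median 0.30) in W/D fish, between -0.081 and 0.74 (median 0.25) in D fish, between -0.71 and 0.49 (median 0.040) in Wa fish and between -1.09 and -0.17 (median -0.57) in Ws fish. Every D fish was above every Ws fish at this spot. The difference W/D compared with Ws was 0.95 ± 0.25 at C042R086, 0.88 ± 0.24 at C149R170 and 0.77 ± 0.27 at C111R056, where 4 or 5 fish of a group had a value. The log2 ratios at C042R086 were between 0.033 and 0.96 (median 0.51) in W/D fish, between -0.18 and 0.51 (median 0.15) in D fish, between -0.44 and 0.57 (median -0.18) in Wa fish and between -1.64 and 0.089 (median -0.20) in Ws fish. At C111R056 they were between -0.37 and 0.76 (median 0.23, 5 fish) in W/D fish, between -0.55 and 0.20 (median -0.091, 4 fish) in D fish, between -0.58 and 0.021 (median -0.14, 5 fish) in Wa fish and between -0.88 and 0.063 (median -0.75, 4 fish) in Ws fish. The means had the order W/D, D, Wa, Ws at C042R086 and C111R056, and the same order at C149R170, with neighbouring groups overlapping at each. Polypeptide VIc-1 of the same complex ran the other way, at -1.05 ± 0.35 in W/D compared with Ws, but rested on 3 W/D and 2 Ws fish.

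ATP synthase, which makes ATP from the proton gradient, was measured by its subunit b (ATP5F1), 0.88 ± 0.23 in W/D compared with Wa in 6 of 6 slides, and by coupling factor 6 (ATP5J), -0.88 ± 0.18 in D compared with Wa. Both differences were short of 2-fold. The mean of ATP5F1 was 2.06 in W/D, 1.99 in D, 1.18 in Wa and 1.32 in Ws, so that D was above Wa for ATP5F1 and below it for ATP5J. The mitochondrial phosphate carrier (SLC25A3), which brings in the phosphate from which ATP is made, had log2 ratios between -1.04 and 0.97 (median 0.41) in W/D fish, between -2.39 and -0.36 (median -0.85) in D fish, between 0.15 and 1.05 (median 0.35) in Wa fish and between -0.79 and -0.00098 (median -0.13) in Ws fish. D was the low group and did not overlap Wa (-1.74 ± 0.32), and W/D exceeded D by 1.50 ± 0.32 in 6 of 6 slides. The Cy5 signal of this oligo was above background in 3 of 6 D fish and in all other fish.

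The largest called difference among the energy members was that of guanidinoacetate N-methyltransferase (gamt), which makes creatine. Its log2 ratios were between -2.95 and -0.89 (median -1.90) in W/D fish, between -4.68 and -1.91 (median -3.17, 5 fish) in D fish, between -1.13 and 0.75 (median -0.080, 5 fish) in Wa fish and between -4.16 and -0.64 (median -1.06, 3 fish) in Ws fish. D was -3.12 ± 0.53 compared with Wa, with no overlap of the D and Wa fish that had a value. W/D was -1.76 ± 0.51 compared with Wa, a listed difference that was not called here. The oligo passed the filter through the W/D arrays alone. Ws, with 3 values between -4.16 and -0.64, spanned the whole range of W/D and most of that of D.

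A pair of thiol-redox members placed D at opposite ends. Thioredoxin domain-containing protein 12 (TXNDC12), an oxidoreductase of the endoplasmic reticulum, had log2 ratios between -0.54 and 0.13 (median -0.17) in W/D fish, between -2.46 and -0.69 (median -1.01) in D fish, between -0.56 and 0.30 (median -0.10) in Wa fish and between -0.88 and 0.59 (median 0.15) in Ws fish. D was lower than Wa (-1.11 ± 0.27) and Ws (-1.28 ± 0.27), and every D fish was below every W/D and Wa fish. Thioredoxin reductase 3 (Txnrd3), which regenerates reduced thioredoxin, had log2 ratios between -0.68 and 0.28 (median -0.26, 5 fish) in W/D fish, between 0.37 and 1.19 (median 0.78) in D fish, between -0.85 and 0.46 (median -0.16, 5 fish) in Wa fish and between -0.65 and 0.11 (median -0.18) in Ws fish. D was higher than Ws by 1.02 ± 0.22 and W/D was -1.001 ± 0.23 compared with D, with no overlap in either comparison. The E1 component dhtkd1, of a mitochondrial 2-oxo acid dehydrogenase, was 1.05 ± 0.27 in D compared with Ws.

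The members of nucleotide metabolism also differed in direction. Deoxycytidylate deaminase (Dctd), which makes the precursor of thymidylate from deoxycytidylate, was low in D on both of its spots. At C211R010 the log2 ratios were between -1.28 and 0.011 (median -0.51) in W/D fish, between -2.40 and -0.84 (median -1.58) in D fish, between -1.03 and 0.44 (median -0.085) in Wa fish and between -0.94 and -0.29 (median -0.46) in Ws fish. At C172R063 they were between -1.72 and -0.034 (median -0.65) in W/D fish, between -1.77 and -1.14 (median -1.32) in D fish, between -0.80 and 0.38 (median -0.16) in Wa fish and between -1.10 and -0.20 (median -0.57) in Ws fish. D was -1.37 ± 0.25 and -1.20 ± 0.24 compared with Wa at these spots, and -1.02 ± 0.25 and -0.76 ± 0.24 compared with Ws, while W/D, Wa and Ws overlapped.

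Thymidine phosphorylase and cytidine deaminase, which act on pyrimidine nucleosides, had their highest mean in D instead. The first of them (TYMP), which frees thymine from thymidine, had log2 ratios between -0.064 and 1.09 (median 0.50) in W/D fish, between 0.80 and 1.59 (median 1.56, 5 fish) in D fish, between -0.37 and 1.07 (median 0.47) in Wa fish and between -0.78 and 0.050 (median -0.0054, 5 fish) in Ws fish. D exceeded Ws by 1.60 ± 0.27 and Wa by 1.02 ± 0.26, and its measured fish lay above all Ws fish. Hemoglobin spots had the same order of group medians as TYMP (0.092 in W/D, 0.58 in D, -0.32 in Wa and -0.64 in Ws). Other members, PFKM, Gfpt1 and HADHB among them, had this order too. The part of the hemoglobin spots in the result was not tested. Cytidine deaminase (CDA), which turns cytidine into uridine, was 1.37 ± 0.26 in D compared with Ws and -1.39 ± 0.26 in W/D compared with D, each in 6 of 6 slides. Amidophosphoribosyltransferase (PPAT), the first enzyme of purine synthesis, was 1.10 ± 0.25 in D compared with Ws.

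Uridine phosphorylase 2 (UPP2), which cleaves uridine in the liver, was lowest in Ws. Its log2 ratios were between 1.27 and 3.38 (median 1.98) in W/D fish, between 1.27 and 2.96 (median 1.66) in D fish, between 1.68 and 3.23 (median 2.47) in Wa fish and between -0.63 and 1.91 (median 0.43) in Ws fish. The log2 fold change compared with Ws was 1.60 ± 0.39 in W/D, 1.30 ± 0.39 in D and 1.92 ± 0.39 in Wa, and the highest Ws fish overlapped the other groups. The putative deoxyribose-phosphate aldolase (Dera), which feeds deoxyribose into glycolysis, was 0.87 ± 0.24 in W/D compared with Ws.

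Nicotinamide riboside kinase 2, annotated as ITGB1BP3, makes a precursor of NAD and was higher in W/D than in Ws on its 3 spots. Its log2 ratios at C102R142 were between 0.43 and 1.72 (median 1.17) in W/D fish, between 0.30 and 0.78 (median 0.67) in D fish, between -0.39 and 1.03 (median 0.64) in Wa fish and between -0.61 and 0.45 (median -0.14) in Ws fish. At C133R075 they were between 0.77 and 1.46 (median 0.97) in W/D fish, between 0.18 and 1.13 (median 0.68) in D fish, between -0.19 and 1.35 (median 0.32) in Wa fish and between -0.39 and 0.74 (median 0.084) in Ws fish. At C252R159 they were between 0.54 and 1.94 (median 1.04) in W/D fish, between 0.19 and 0.78 (median 0.41) in D fish, between 0.56 and 1.12 (median 0.85) in Wa fish and between -0.37 and 0.63 (median 0.30) in Ws fish. W/D had the highest mean and Ws the lowest at each spot. The log2 fold change in W/D compared with Ws was 1.13 ± 0.24, 0.96 ± 0.23 and 0.88 ± 0.22 at these spots, with the fish of both groups apart at C133R075 alone. In mammals this kinase is known from muscle. The sarcomeric actin spots had a median difference of -2.16 in W/D compared with Ws (5 of 6 called lower), and their part in the result was not tested.

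Methyltransferase-like protein 4 (Mettl4), which the lists file under nucleotide metabolism, had log2 ratios between -1.45 and -0.19 (median -0.62) in W/D fish, between -2.80 and -1.36 (median -1.85) in D fish, between -0.88 and 0.50 (median -0.14) in Wa fish and between -0.60 and 0.58 (median 0.087) in Ws fish. Every D fish was below every Wa and Ws fish, with log2 fold changes of -1.88 ± 0.29 and -2.04 ± 0.29. The W/D mean stood between, 1.31 ± 0.29 above D in 6 of 6 slides.

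Where W/D lies between its parent groups was not used to place a member on the list of D compared with Wa, and it could be tested there. The set as a whole, however, also drew on lists that compared W/D with other groups. The measure was W/D minus the mean of D and Wa, the midparent value, which is orthogonal to the difference between D and Wa, although the overall analysis of variance behind the lists used all 4 groups, so that independence is not complete. By limma with adjustment over all 8679 oligos, 0 of the 21 listed members departed from the midparent value (0.219% of all oligos did), and 5 had an unadjusted p under 0.05. All 5 also stood on the study's list of W/D compared with D, so that their departures are not support apart from the lists. The departure was 0.78 (95% interval 0.21 to 1.35) for Tsta3, towards D, -0.65 (95% interval -1.18 to -0.13) for smpd4 and -0.55 (95% interval -0.97 to -0.13) for Txnrd3, towards Wa, and 0.63 (95% interval 0.070 to 1.19) for SLC25A3 and 0.47 (95% interval 0.0038 to 0.94) for TXNDC12, also towards Wa. For the other 16 members the interval spanned 0, as for gamt, at -0.20 (95% interval -1.10 to 0.69). By sign, W/D lay nearer Wa for 15 of the 21 and nearer D for 6. Over the 311 oligos called in D compared with Wa, it lay nearer Wa for 53.7%. These were called here, whereas the 21 were listed by the study, so that the shares are not like for like.

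For the 25 members on the list of D compared with Ws, W/D was set against the mean of D and Ws in the same way. One member, dhcr7, departed from it, by 1.04 (95% interval 0.55 to 1.52), adjusted p = 0.0302 by limma (0.657% of all oligos). Dhcr7 also stood on the study's list of W/D compared with Ws, so that this departure is not support apart from the lists. The dhcr7 mean was higher in W/D than in D and in Ws, and this call was lost without W/D replicate 1, 2, 3, 4 or 6 or D replicate 3 (adjusted p between 0.0508 and 0.0722). Unadjusted, p was under 0.05 for 12 of the 25. Among these were LPL at C109R167, which departed by -0.76 (95% interval -1.26 to -0.26) towards D, and CDA, which departed by -0.70 (95% interval -1.17 to -0.24) towards Ws. The mean of CDA was 0.10 in W/D, 1.49 in D, 0.84 in Wa and 0.12 in Ws. For CDA, the W/D mean thus lay below the means of both D and Wa, its parent groups. The fish of W/D (between -0.78 and 0.76) and of Wa (between 0.34 and 1.31) overlapped, however. The difference between W/D and Wa was not called. W/D lay nearer D for 13 of the 25 and nearer Ws for 12, or 48%. Over the 299 oligos called in D compared with Ws, it lay nearer Ws for 36.1%, again with members listed by the study and oligos called here.

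**Figure D4:**
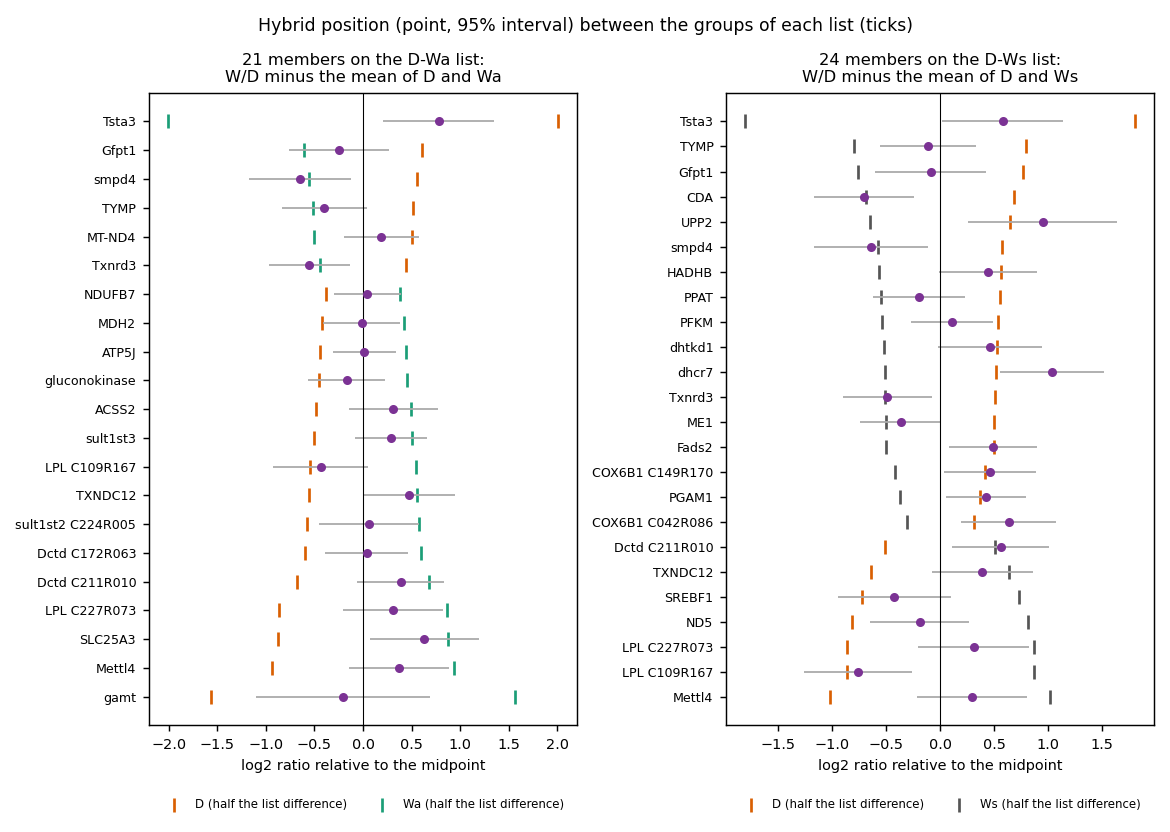
Position of W/D (purple point, 95% interval) compared with the midpoint of D and Wa for the 21 members on that list (left) and of D and Ws for 24 of the 25 members on that list (right), in log2 ratio. Ticks mark where the 2 groups of the list lie, at equal distance on either side of 0. W/D lies between the ticks for 19 of the 21 members on the left and 16 of the 24 on the right, where dhcr7 lies above both ticks.

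For the 12 members on the list of Wa compared with Ws, 11 of which were tested, D and W/D were each set against the mean of the 2 wild groups. With D, 0 of 11 departed at the adjusted threshold by limma, against 9.1% of all oligos, and 4 had an unadjusted p under 0.05, namely HADHB, Fads2, sult1st3 and sult1st2 at C224R005. Each of these 4 also stood on a list of D compared with Wa or with Ws. D lay towards Wa for HADHB, at 0.67 (95% interval 0.21 to 1.12), and for Fads2, at 0.59 (95% interval 0.18 to 1.003). It lay towards Ws for sult1st3, at -0.52 (95% interval -0.89 to -0.15), and for sult1st2, at -0.62 (95% interval -1.06 to -0.17). With W/D, 1 of 11 departed (1.97% of all oligos), again dhcr7, by 0.97 (95% interval 0.48 to 1.45), adjusted p = 0.0235, a call lost without W/D replicate 1, 2 or 3 (adjusted p between 0.0511 and 0.0584). This contrast shares the W/D and Ws fish with the dhcr7 departure above, so that it is not a second finding. Unadjusted, p was under 0.05 for 5 of the 11, which besides dhcr7 were Gm2a, at -0.99 (95% interval -1.55 to -0.42), SLC27A2, at 0.62 (95% interval 0.17 to 1.06), Fads2, at 0.59 (95% interval 0.18 to 0.996), and HADHB, at 0.54 (95% interval 0.085 to 1.00). All 5 also stood on the list of W/D compared with Ws. W/D lay nearer Wa for 10 of the 11 members and D for 7 of them, by sign alone. The interval spanned 0 for 6 of the 11 with W/D and for 7 with D. Over the 77 oligos called in Wa compared with Ws, 44 lay nearer Wa in W/D and 21 in D. The 11 were listed by the study and the 77 called here, and 4 of the 11 were sulfotransferase spots, so that the shares are not like for like.

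Whether spots of one description follow the same fish was asked of the deviations of each fish from its group mean. These are not the group differences that made the lists. The analysis of variance behind the lists did weigh those differences against the spread within groups, so that independence is again not complete. Over 11 pairs of spots of 5 genes, Pearson's r ran between 0.0276 and 0.711, and 3 pairs passed a permutation test (two-sided, 100000 resamples of fish within groups) after Benjamini-Hochberg adjustment over the 11. They were COX6B1 at C111R056 and C149R170 (r = 0.711, Spearman's rho = 0.721, permutation p = 0.00251 and 0.00308, adjusted p = 0.0138 and 0.0169, 18 fish), sult1st2 at C058R109 and C205R072 (r = 0.65, rho = 0.503, permutation p = 0.00251 and 0.0179, adjusted p = 0.0138 and 0.0496, 24 fish) and sult1st2 at C205R072 and C224R005 (r = 0.583, rho = 0.63, permutation p = 0.00407 and 0.00284, adjusted p = 0.0149 and 0.0169, 22 fish). Without the 2 fish farthest from the median of the first spot, r was 0.735, 0.446 and 0.738. Neither of the other two COX6B1 pairs passed on r, C042R086 with C111R056 at r = 0.272 (rho = 0.195, permutation p = 0.205 and 0.385, adjusted p = 0.25 and 0.447, 18 fish) and C042R086 with C149R170 at r = 0.472 (rho = 0.391, permutation p = 0.0267 and 0.0817, adjusted p = 0.0588 and 0.18, 24 fish). The third pair of sult1st2 spots had r = 0.512 and rho = 0.537 (permutation p = 0.0256 and 0.018, adjusted p = 0.0588 and 0.0496, 22 fish).

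The 2 LPL spots, which placed W/D differently relative to D, showed no detectable correlation over the fish (r = 0.0276, rho = -0.0761, permutation p = 0.909 and 0.748, adjusted p = 0.909 and 0.748, 23 fish). The Dctd pair gave r = 0.363 (rho = 0.186, permutation p = 0.106 and 0.407, adjusted p = 0.195 and 0.447), and the 3 pairs of nicotinamide riboside kinase 2 spots gave r between 0.264 and 0.349 with adjusted p between 0.211 and 0.297 by the permutation test. For these a correlation was not detected with 24 fish.

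**Figure D5:**
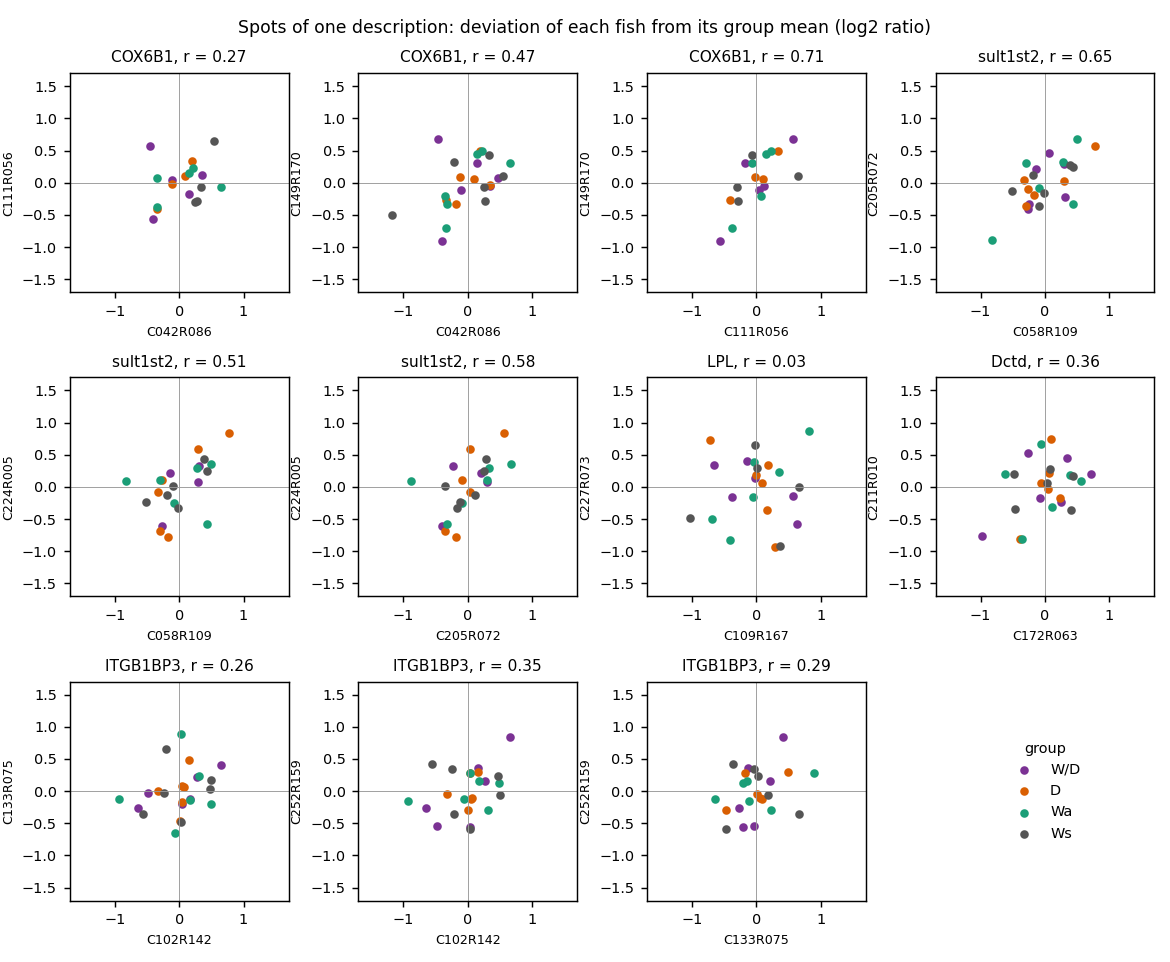
Deviation of each fish from its group mean (log2 ratio) at one spot against that at another spot of the same description, for 11 pairs, with Pearson's r above each panel. Points are fish coloured by group. Points for sult1st2 and for COX6B1 at C111R056 and C149R170 rise along the diagonal, and those for LPL scatter with r = 0.03.

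The same measure was taken between the 6 members of fatty acid and cholesterol synthesis (SREBF1, ACSS2, Fads2, ME1, EBP and dhcr7). Of 15 pairs, 0 passed the permutation test after adjustment, and r ran between -0.592 and 0.269. The lowest r was that of SREBF1 with EBP (rho = -0.669, permutation p = 0.00778 and 0.00405, adjusted p = 0.117 and 0.0607, 20 fish), and it was -0.585 without the 2 fish farthest from the median of SREBF1. SREBF1 with Fads2, which lay on opposite sides compared with Ws in the group means, gave r = -0.36 (rho = -0.405, permutation p = 0.0918 and 0.0546, adjusted p = 0.689 and 0.409).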

How the data were processed

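Liver RNA of 24 fish was hybridised to 2-colour 44K oligo arrays, 4 to a slide, with the single fish in Cy5 and a pool of 6 Ws fish in Cy3. The deposited scanner files hold the signal intensity and local background that the authors' image software gave for each spot, and a quality flag whose meaning is not given in the sources used here. The deposited log2 ratios were LOWESS-normalised by the authors and centred on each oligo's median over the arrays, and were used as an alternative. The study's lists supplied only names and categories, and their fold changes and p-values were not used.

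Intensities were background-corrected (normexp, offset 50) and loess-normalised within arrays in limma 3.58.1 (R 4.3.3), leaving out 1531 control spots from the loess fit and setting flagged spots (1.83%) to missing. To be kept, an oligo needed a value in every group and, in 1 group or more, an unflagged Cy5 signal of at least 300 on each of its 6 arrays. The limma fit used 4 group means, and p-values were adjusted over 8679 oligos by the Benjamini-Hochberg method. They measure the spread between fish of a group. Correlations were computed in Python 3.11.15 with scipy 1.17.1. Other scalings, filters, a replicate block, the methods' analysis of variance and leaving out each fish were tried, and the model was tested on simulated data.

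The members, the gene groups and the tests were chosen with earlier results of these data known. Members were given with their lowest, median and highest fish when they were measured by several spots, stood on at least 3 lists, or differed at least 2-fold without overlap between 6 and 6 measured fish in some comparison, and the rest by their log2 fold change in a listed comparison. Gamt falls outside this rule and was given in full after its values were seen. Gene names come from the lists, since the scanner files name no genes. Sequences and pathway genes outside the lists were not analysed here, and 1 member is counted but its own values are not reported here.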

Additional observations from a re-analysis of the deposited data

Results flagged for a closer look

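In 17 sets of 4 to 6 fish, a set being 1 oligo in 1 group (8.33% of those tested), the highest or lowest fish lay further from its neighbour, relative to the group's range, than Dixon's 95% critical value, where chance gives about 1 set in 20. Of these, 1 was in W/D, 7 in D, 4 in Wa and 5 in Ws.

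D replicate 1 stood apart for TYMP (0.80, others between 1.54 and 1.59), UPP2 (2.96, others between 1.27 and 1.78), TXNDC12 (-2.46, others between -1.31 and -0.69) and cytochrome c oxidase polypeptide VIc-1 (-0.42, others between -0.95 and -0.82). D replicate 4 stood apart for ME1 (1.60, others between 0.35 and 0.57) and LPL at C109R167 (-2.55, others between -1.82 and -1.54), and D replicate 2 for nicotinamide riboside kinase 2 at C102R142 (0.30, others between 0.63 and 0.78). In W/D, replicate 5 was low for gluconokinase (-0.85, others between -0.20 and 0.038).

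In Wa, the high fish were replicate 6 for MDH1 (1.64), replicate 1 for MT-ND4 (0.36), replicate 5 for SLC27A2 (1.62) and replicate 4 for PPAT (1.36). In Ws, they were replicate 4 for Gfpt1 (0.51), replicate 1 for MDH2 (0.66) and replicate 6 for ND5 (1.06), and the low fish were replicate 5 for MT-ND4 (-0.91) and replicate 3 for fabp2 (-0.48). The cause was not tested in any of them.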

How the results depend on the processing

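The 61 called differences of members were followed over the other scalings, with flagged spots kept, with the replicate block and with each fish left out. Of them, 0 changed direction, 24 kept their call in all of these settings and 35 lost it when some fish was left out. The fits without the filter or with a stricter signal filter, and the analysis of variance, were not part of this count. The counts of members called, 8 in W/D compared with D, 1 in W/D compared with Wa, 10 in W/D compared with Ws, 15 in D compared with Wa, 21 in D compared with Ws and 6 in Wa compared with Ws, moved by over 1.5 times as follows. Without background correction they were 2 in W/D compared with Wa, 6 in W/D compared with Ws, 9 in D compared with Wa and 13 in D compared with Ws. With median centring, 17 were called in W/D compared with Ws. With a Cy5 signal of at least 300 required on all arrays, which left 31 members, they were 2, 0, 6, 6, 10 and 3 in the order above. From the deposited ratios they were 3 in W/D compared with Wa and 20 in W/D compared with Ws, and from the Cy5 signal alone 5 in W/D compared with D, 2 in W/D compared with Wa and 12 in D compared with Ws. The methods' analysis of variance with Tukey's test called 10, 1, 10, 15, 20 and 6.

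Leaving out 1 fish at a time gave 3 to 10 in W/D compared with D (lowest without W/D replicate 2, and 5 without W/D replicate 3 or 5 or D replicate 1, 3, 4 or 6), 1 to 2 in W/D compared with Wa (2 without W/D replicate 5, Wa replicate 6 or Ws replicate 1), 7 to 14 in W/D compared with Ws, 12 to 15 in D compared with Wa, 15 to 21 in D compared with Ws and 2 to 8 in Wa compared with Ws (3 without Wa replicate 4 and 2 without Wa replicate 6).

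For departures from a midpoint, the D-Wa list gave 0 to 0 and the D-Ws list 0 to 1 when a fish was left out, and 2 with median centring on the D-Ws list. On the Wa-Ws list, D gave 0 to 3 when a fish was left out (3 without Ws replicate 3), 3 without background correction and 1 from the deposited ratios or the Cy5 signal alone. W/D gave 0 to 2 (0 without W/D replicate 1 or 2, and 2 without Wa replicate 3), 2 without background correction, with flagged spots kept or from the deposited ratios, and 3 from the Cy5 signal alone. With median centring, 8 in place of 3 pairs of same-gene spots passed. The cause of these shifts was not tested.

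With the replicate block, the counts of called members were 7, 1, 10, 15, 21 and 5, and those of departures were 0 on the D-Wa list, 1 on the D-Ws list, and 2 for D and 1 for W/D on the Wa-Ws list. The deviations of same-numbered samples, which were taken to lie on 1 slide, had correlations between -0.13 and 0.18. In a pair of groups, 1 or 2 of 6 samples correlated best with their own number.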
